A study of Mus musculus with 24 samples.

Results

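The genes described here are the metallothioneins Mt1 and Mt2, the metal-sensing transcription factor Mtf1, and 7 zinc transporters: the exporters Slc30a1, Slc30a5, Slc30a7 and Slc30a8 and the importers Slc39a6, Slc39a7 and Slc39a14. They were chosen by symbol, with earlier results of these data known, and all 10 were found among the 14027 genes of the deposited table. RNA had been sequenced from pancreatic alpha cells, which secrete glucagon, and pancreatic beta cells, which secrete insulin. All cells came from mice of a strain labelled triple reporter mouse, with no treatment named. The labels name neither the alleles of this strain nor the age or sex of the animals. Islets were isolated at zeitgeber time 0, 4, 8, 12, 16 or 20 h (ZT0 to ZT20), so the 12 groups are each cell type at each of these times, with 2 libraries a group and 12 libraries a cell type.

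Zinc enters the cytosol through transporters of the Slc39 family and leaves it, to the outside or into an organelle, through transporters of the Slc30 family. Metallothioneins are small cysteine-rich proteins that bind zinc and copper, and the factor encoded by Mtf1 senses zinc and induces Mt1, Mt2 and Slc30a1 by binding metal response elements in their promoters. In the islet, Slc30a8 loads zinc into the secretory granule, where insulin is stored as a zinc complex.

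The libraries held 4944982 to 12364190 reads, and each member had at least 54 reads in every library. The hormone genes went with the labels. Gcg, which encodes glucagon, was at 125000 ± 24000 RPKM (reads per kilobase of gene at a common library size) in alpha cells, against 287 ± 519 RPKM in beta cells (SD over 12 libraries). For Ins2, an insulin gene, the alpha and beta means were 1170 ± 954 and 174000 ± 38500 RPKM. Markers of other cell types were also present: the summed level of the pancreatic polypeptide cell markers (2 of 2 measured) was 27800 to 59500 RPKM in alpha and 359 to 1730 RPKM in beta libraries, and that of the delta cell markers (4 of 4) 2510 to 5180 against 645 to 1420 RPKM. Summed acinar markers (5 of 7 measured) were at 20.6 to 286 RPKM in alpha and 27.8 to 269 RPKM in beta libraries, and stromal markers (4 of 4) at 4.21 to 6.7 against 0.173 to 0.869 RPKM. Summed duct markers (2 of 4 measured) were at 25.6 to 78.6 against 5.03 to 19.2 RPKM. The part of these cells in the differences below was not tested. In bulk RNA, fewer cells of a type and less RNA per cell cannot be told apart.

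Slc30a8 was the most abundant member, with means of 456 ± 29.7 and 671 ± 119 RPKM in alpha and beta cells (SD, n = 12). In alpha cells Mt1 (92.6 ± 63.3 RPKM) and Slc39a7 (78.3 ± 6.17 RPKM) came next, and their libraries overlapped: Mt1 was the higher in 6 of 12. Mt2 (28.7 ± 20.6 RPKM) and Slc30a5 (27.7 ± 3.82 RPKM) followed and overlapped too. Slc39a6 (10.5 ± 1.26 RPKM) and Slc30a7 (9.83 ± 1.01 RPKM) could likewise not be ordered. Mtf1, Slc30a1 and Slc39a14, at 5.6, 5.48 and 4.97 RPKM, formed the lowest group and overlapped with each other. The alpha libraries of Slc30a8 did not overlap with those of Mt1, nor those of Slc39a7 with Mt2, Slc30a5 with Slc39a6, or Slc30a7 with Mtf1.

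In beta cells the order was Slc30a8, Mt1 (281 ± 147 RPKM) and Slc39a7 (130 ± 17.4 RPKM). Their ranges overlapped from one to the next, but Mt1 was below Slc30a8 in 12 of 12 beta libraries and above Slc39a7 in 11 of 12. Mt2 (59.7 ± 32.8 RPKM) and Slc30a5 (46.6 ± 6.14 RPKM) overlapped, with Mt2 the higher in 6 of 12 libraries. Slc30a7 (15.7 ± 2.08 RPKM) and Slc39a6 (14.4 ± 1.84 RPKM) overlapped, as did Mtf1 (6.8 ± 0.427 RPKM) and Slc30a1 (6.51 ± 1.49 RPKM). Slc39a14, at 4 ± 0.399 RPKM, was below Slc30a1 in 12 of 12 libraries.

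Mt1 and Mt2 differed between the cell types by more than any other member and were higher in beta cells. Mt1 ranged from 30.5 to 232 RPKM (median 76.1) over the 12 alpha libraries and from 141 to 665 RPKM (median 264) over the 12 beta libraries. Over all times the ranges overlapped, but at each of the 6 times both beta libraries were above both alpha libraries. The fitted difference of Mt1, alpha minus beta with the time point in the model, was -1.75 on the log2 scale, or 3.37-fold (SE 0.151, limma adjusted p = 5.7e-10). Mt2 ranged from 9.05 to 62.6 RPKM (median 22.6) over the alpha libraries and from 29.3 to 144 RPKM (median 51.5) over the beta libraries. It was again higher in both beta than both alpha libraries at all 6 times, with a fitted log2 difference of -1.26, or 2.39-fold (SE 0.159, limma adjusted p = 3.3e-07).

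A difference was called where it was 2-fold or larger with an adjusted p under 0.05, and 2 of 10 members passed, both higher in beta cells, where 20.7% of all genes passed and 9.54% did so with the higher level in beta cells. A share of 2 in 10 is near this background. Without the fold threshold all 10 members passed, against 74.9% of all genes, and 9 of them were higher in beta cells, against 37.2%, and 1 in alpha cells, against 37.8%. The median log2 difference was -0.60 over the members and 0.01 over all genes. In 8 of 10 members both beta libraries were above both alpha libraries at all 6 times, against 20.7% of all genes. The members were chosen with earlier results of these data known, so these shares are a description.

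The transporters that supply secretory compartments were higher in beta cells by less than 2-fold. Slc30a5, which moves zinc into the early secretory pathway, had 22.2 to 34.3 RPKM (median 28.1) in alpha and 39.6 to 60.4 RPKM (median 45.9) in beta cells. Its log2 difference was -0.75 (SE 0.063, limma adjusted p = 3.0e-10). Slc30a7, a zinc exporter into the Golgi apparatus, had 8.49 to 11.8 RPKM (median 9.57) against 12.6 to 19.4 RPKM (median 15.7). The 12 alpha and 12 beta libraries of Slc30a5 and of Slc30a7 did not overlap. The log2 difference of Slc30a7 was -0.67 (SE 0.065, limma adjusted p = 2.8e-09). Slc30a8 had 411 to 524 RPKM (median 454) in alpha and 516 to 864 RPKM (median 672) in beta cells, with a log2 difference of -0.54 (SE 0.063, limma adjusted p = 8.1e-08). Its highest alpha library, replicate 2 of ZT8, was just above its lowest beta library, replicate 1 of ZT16.

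Slc39a7, which releases zinc from the endoplasmic reticulum, had 70 to 88.2 RPKM (median 77.1) in alpha and 95.1 to 153 RPKM (median 134) in beta cells. These libraries did not overlap either, which made 3 of 10 members without overlap between cell types, all higher in beta cells, against 26% of all genes and 14.2% in that direction. The log2 difference of Slc39a7 was -0.72 (SE 0.056, limma adjusted p = 8.6e-11). The level of Slc39a7 is uncertain, since it shares exonic bases with another transcript on the same strand, as given below. Slc39a6, an importer of the plasma membrane, was at 10.5 ± 1.26 against 14.4 ± 1.84 RPKM and overlapped, with a log2 difference of -0.44 (SE 0.050, limma adjusted p = 4.3e-08). Slc39a14, an importer of the plasma membrane that also carries iron and manganese, was the one member higher in alpha cells. It had 3.72 to 5.78 RPKM (median 5.04) in alpha and 3.41 to 4.76 RPKM (median 4) in beta cells, and at 5 of 6 times both alpha libraries were above both beta libraries. Its log2 difference was 0.30 (SE 0.065, limma adjusted p = 2.2e-04).

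The remaining pair differed least. Mtf1 was at 5.6 ± 0.357 against 6.8 ± 0.427 RPKM, a log2 difference of -0.28 (SE 0.045, limma adjusted p = 7.6e-06). Slc30a1, the exporter of the plasma membrane, was at 5.48 ± 1.3 against 6.51 ± 1.49 RPKM, a log2 difference of -0.25 (SE 0.067, limma adjusted p = 0.0017). Both beta libraries of Slc30a1 were above both alpha libraries at 4 of 6 times, and without the time point in the model its difference no longer passed at an adjusted p under 0.05 (limma adjusted p = 0.0845).

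**Figure D1:**
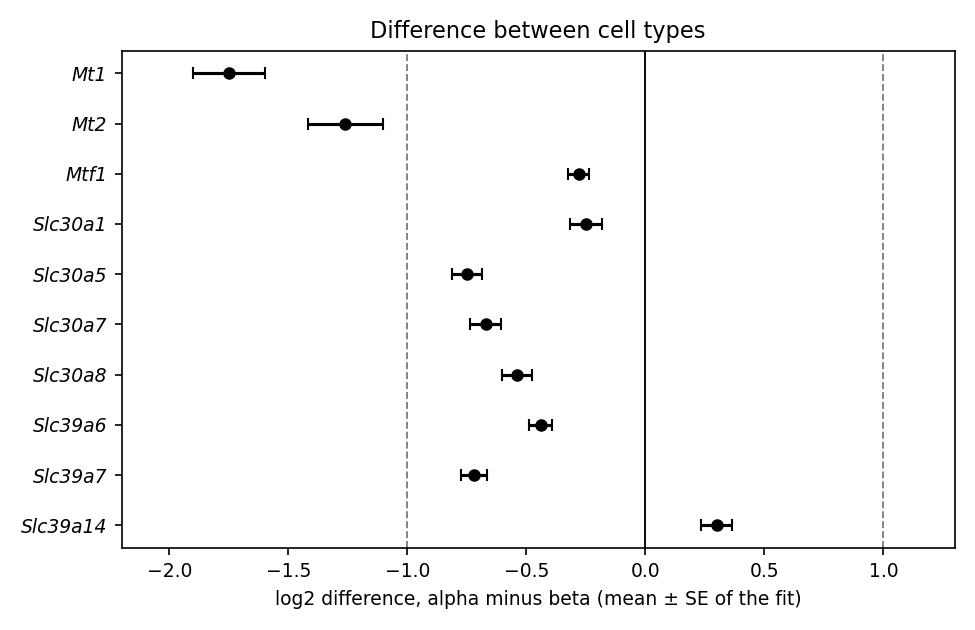
Difference in level between alpha and beta cells for the 10 members. The horizontal axis is the fitted log2 difference, alpha minus beta, with its standard error, and the dashed lines mark a 2-fold difference: Mt1 (-1.75) and Mt2 (-1.26) lie beyond it, and Slc39a14 (0.30) is the one member to the right of 0.

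A daily rhythm was tested by fitting a 24 h cosine in each cell type and was called at an adjusted p under 0.05. The size of a rhythm is given as the fitted difference between peak and trough on the log2 scale. In alpha cells 3 of 10 members were called rhythmic, Mt1, Mt2 and Slc30a1, against 9.66% of all genes. In beta cells 4 of 10 were called, the same 3 and Slc30a8, against 16%. The 3 members called in both cell types compare with 4.15% of all genes. Because of how the members were chosen, these shares too are a description. Nothing in the labels says that both libraries of a group are from different mice. The p-values then measure the spread between libraries alone, which may be technical.

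Mt1 in alpha cells was high from ZT4 to ZT12 and low from ZT16 to ZT0. Its 2 libraries had 53.5 and 43.7 RPKM at ZT0, 117 and 163 RPKM at ZT4, and 122 and 232 RPKM at ZT8. They had 98.7 and 133 RPKM at ZT12, 31.8 and 37.9 RPKM at ZT16, and 30.5 and 47.8 RPKM at ZT20. The 6 libraries of ZT4 to ZT12 were all above the 6 of ZT16 to ZT0, a split made after seeing these values, which 3.09% of all genes show in alpha cells (1.53% show the reverse). The fitted range was 2.53, or 5.77-fold (SE 0.306, limma adjusted p = 1.1e-04), with the peak at 7.4 h (SE 0.5 h). The summed markers listed for duct cells and for pancreatic polypeptide cells (Ppy and Pyy) took a similar course in the alpha libraries. The duct markers Krt19 and Cftr were not in the deposited table. The summed level of the 2 duct markers measured of 4 (Spp1 and Muc1) was 44.3 to 78.6 RPKM at ZT4 to ZT12, 25.6 to 32.1 RPKM at ZT16 and ZT20, and 60.8 and 31.8 RPKM at ZT0. That of the pancreatic polypeptide cell markers was 36600 to 59500 RPKM at ZT4 to ZT12, 28000 to 33700 RPKM at ZT16 and ZT20, and 48500 and 27800 RPKM at ZT0. The summed alpha cell markers (6 of 6 measured) were at 108000 to 177000, 101000 to 130000, and 160000 and 105000 RPKM at these times. Delta cell markers, at 2510 to 4290, 3610 to 5180, and 3790 and 2840 RPKM, did not take this course. Neither did acinar markers, at 48 to 286, 77.3 to 146, and 20.6 and 140 RPKM. The part of other cells in the rhythms of Mt1, Mt2 and Slc30a1 in alpha cells was not tested.

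Mt1 in beta cells was high over the same part of the day, at a higher level. Its libraries had 251 and 155 RPKM at ZT0, 367 and 665 RPKM at ZT4, and 350 and 290 RPKM at ZT8. They had 358 and 278 RPKM at ZT12, 155 and 141 RPKM at ZT16, and 181 and 176 RPKM at ZT20. The ZT4 to ZT12 libraries were again all above the others (2.70% of all genes in beta cells, and 3.08% the reverse), and the 2 libraries of ZT4 were far apart. A range of 1.49 was fitted, or 2.81-fold (SE 0.306, limma adjusted p = 0.0083), with the peak at 6.4 h (SE 0.8 h). Without replicate 2 of ZT4 it was 1.22 and stayed called.

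Mt2 in alpha cells had 17.9 and 10.5 RPKM at ZT0, 43.9 and 59.4 RPKM at ZT4, and 48.2 and 62.6 RPKM at ZT8. It had 27.3 and 35.7 RPKM at ZT12, 9.44 and 9.05 RPKM at ZT16, and 9.42 and 10.7 RPKM at ZT20. No ZT4 to ZT12 library fell to the level of the other 6. The fitted range of 2.90, or 7.44-fold, was the largest among the members (SE 0.297, limma adjusted p = 1.2e-05, peak at 7.0 h, SE 0.4 h).

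Mt2 in beta cells had 55.4 and 31.6 RPKM at ZT0, 86.4 and 144 RPKM at ZT4, and 72.6 and 65.6 RPKM at ZT8. It had 73.7 and 47.6 RPKM at ZT12, 29.7 and 29.3 RPKM at ZT16, and 40.8 and 39.2 RPKM at ZT20. Replicate 2 of ZT12 was below replicate 1 of ZT0, so the 2 parts of the day overlapped. Its fitted range was 1.55, or 2.94-fold (SE 0.297, limma adjusted p = 0.0049), with the peak at 5.9 h (SE 0.7 h).

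In Mt1 and Mt2 the ratio of the cell type means, each of 2 libraries, varied over the times. This is a description, and the test of a different rhythm is given below. The ratio of the mean beta to the mean alpha RPKM of Mt1 was 4.18 at ZT0, 3.69 at ZT4, 1.81 at ZT8, 2.74 at ZT12, 4.25 at ZT16 and 4.56 at ZT20. For Mt2 it was 3.07, 2.23, 1.25, 1.92, 3.19 and 3.97 at the same times. Both ratios were lowest at ZT8 and highest at ZT20. At ZT8 the 2 alpha libraries of Mt1 were far apart, at 122 and 232 RPKM. Together, Mt1 and Mt2 took 0.00235% to 0.0162% of the reads of an alpha library and 0.00908% to 0.0374% of those of a beta library. Mt1 exceeded Mt2 by 3.45 ± 0.639 times per length in alpha cells and by 4.77 ± 0.435 times in beta cells (mean ± SD, n = 12), with overlapping libraries.

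Slc30a1 was called rhythmic with the metallothioneins, though with a smaller range. In alpha cells it had 5.55 and 4.56 RPKM at ZT0, 5.89 and 7.47 RPKM at ZT4, and 7.08 and 7.08 RPKM at ZT8. It had 5.49 and 6.09 RPKM at ZT12, 4.56 and 3.43 RPKM at ZT16, and 4.02 and 4.51 RPKM at ZT20. The parts of the day met at replicate 1 of ZT0 and replicate 1 of ZT12. Slc30a1 had a fitted range of 0.86, or 1.81-fold (SE 0.150, limma adjusted p = 0.0042, peak at 6.6 h, SE 0.7 h).

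Slc30a1 in beta cells had 5.11 and 5.51 RPKM at ZT0, 8.01 and 9.55 RPKM at ZT4, and 7.41 and 6.98 RPKM at ZT8. It had 8.0 and 6.56 RPKM at ZT12, 5.35 and 4.66 RPKM at ZT16, and 5.37 and 5.64 RPKM at ZT20. Here the ZT4 to ZT12 libraries were all above the other 6. Slc30a1 here had a fitted range of 0.70, or 1.63-fold (SE 0.150, limma adjusted p = 0.01, peak at 6.9 h, SE 0.8 h).

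**Figure D2:**
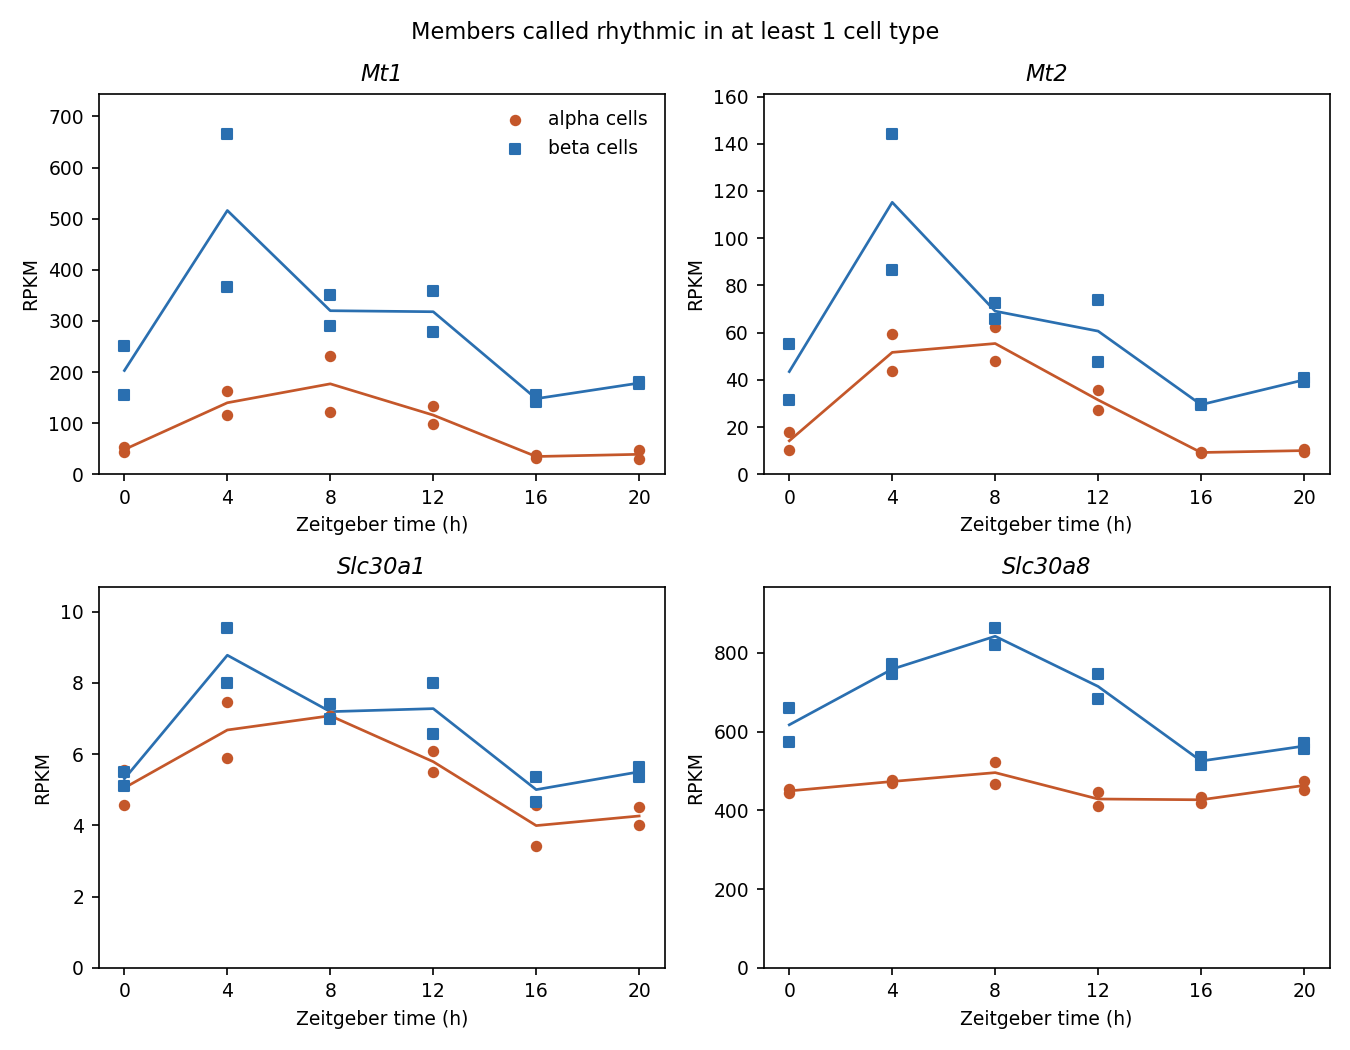
Level of the 4 members called rhythmic in at least 1 cell type, in RPKM, against zeitgeber time in hours. Each point is a library and lines join the means of 2 libraries: Mt1, Mt2 and Slc30a1 are high at ZT4 to ZT12 in both cell types, while Slc30a8 shows this course in beta cells and lies between 411 and 524 RPKM in alpha cells.

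Mt1, Mt2 and Slc30a1 moved together over the day, and so their promoters are shown. Of the 10 members 7 had an entry in the RefSeq promoter table of GRCm38.p6, which covers 250 bases before to 50 bases after the start of a gene. Slc30a8, Slc39a6 and Slc39a14 were not searched. The stretches below run 5′ to 3′ on the + strand to base 30 of the transcript, at chr8:94178839-94179118 for Mt1, chr8:94172368-94172647 for Mt2 and chr1:191906531-191906810 for Slc30a1. Capitals mark matches to the core of the metal response element, searched as TGCACNC or TGCGCNC on both strands.
Mt1: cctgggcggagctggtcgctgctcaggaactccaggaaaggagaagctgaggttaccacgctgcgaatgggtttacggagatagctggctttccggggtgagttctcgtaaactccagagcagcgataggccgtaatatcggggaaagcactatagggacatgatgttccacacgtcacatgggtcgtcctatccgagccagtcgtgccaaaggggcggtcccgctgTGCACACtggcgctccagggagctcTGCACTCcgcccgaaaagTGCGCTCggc
Mt2: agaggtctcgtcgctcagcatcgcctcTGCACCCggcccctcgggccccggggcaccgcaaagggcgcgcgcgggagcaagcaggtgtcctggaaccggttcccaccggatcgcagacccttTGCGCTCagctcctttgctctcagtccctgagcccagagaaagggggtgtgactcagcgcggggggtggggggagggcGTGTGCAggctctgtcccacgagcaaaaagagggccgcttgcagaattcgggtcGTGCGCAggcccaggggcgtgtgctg
Slc30a1: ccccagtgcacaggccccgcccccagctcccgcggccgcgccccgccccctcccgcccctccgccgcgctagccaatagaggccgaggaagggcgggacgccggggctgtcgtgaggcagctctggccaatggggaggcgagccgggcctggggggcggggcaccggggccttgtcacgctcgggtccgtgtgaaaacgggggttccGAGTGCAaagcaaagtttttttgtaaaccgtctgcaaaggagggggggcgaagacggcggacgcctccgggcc

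In the Mt1 promoter the 3 matches begin 23 bases before the start and at bases 3 and 21 of the transcript. Mt2 held 4, which begin 223, 128 and 50 bases before the start and at base 5 of the transcript. These starts are those of the RefSeq promoter table and differ from the annotated gene starts given below. The annotated Mt2 gene begins at 94172664, past the printed stretch, so all 4 matches lie before that start. Slc30a1 held 1 match 43 bases before the start and another at base 31, past the printed stretch. Among all 32851 promoters of the table, 25.7% held at least 1 match, 7.11% at least 2, 1.97% at least 3 and 0.517% at least 4. Slc30a5 held 1, and Mtf1, Slc30a7 and Slc39a7 held none in this window. The E-box CACGTG, to which clock factors bind, was found in 1 of the 7 promoters searched, that of Slc30a5 (7.15% of all promoters). The palindromic glucocorticoid response element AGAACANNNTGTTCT was found in none of the 7 and in 0.00913% of all promoters. These are matches of letters in a window, and binding was not measured.

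Mt2 and Mt1 lie next to each other on chromosome 8 of the mm10 assembly, Mt2 from 94172664 to 94173568 and Mt1 from 94179082 to 94180327, 5513 bases apart and both on the + strand. The longest run shared exactly by their annotated transcripts was 20 bases, yet they are close paralogs, and how reads that fit both were handled is not stated in the labels. Slc30a1 lies on chromosome 1 from 191906767 to 191913247 and Slc30a8 on chromosome 15 from 52295553 to 52335798. All 10 members are annotated as protein-coding. Mt2 and Slc30a1 each overlap an annotated antisense gene, and the libraries were stranded, but whether the counting used the strand is not stated in the labels. The antisense gene at Slc30a1, 1700034H15Rik, had 2 to 23 reads in any library. Slc39a7 shares 2084 exonic bases with Gm20427, a transcript on the same strand at 52.7 ± 3.73 RPKM (alpha cells) and 84.3 ± 10.9 RPKM (beta cells), so the level of Slc39a7 is uncertain. Mtf1 shares 721 exonic bases with 1110065P20Rik on the opposite strand (17.9 ± 2.37 and 30.8 ± 3.55 RPKM). Slc30a7 shares 1165 exonic bases with Gm6649 and 637 with Gm43106. Both are processed pseudogenes on the opposite strand and were not in the deposited table.

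Slc30a8 was called rhythmic in beta cells. Its beta libraries had 661 and 574 RPKM at ZT0, 747 and 771 RPKM at ZT4, and 864 and 821 RPKM at ZT8. They had 683 and 747 RPKM at ZT12, 516 and 535 RPKM at ZT16, and 556 and 571 RPKM at ZT20. The ZT4 to ZT12 libraries were all above the others. The fitted range was 0.66, or 1.58-fold (SE 0.102, limma adjusted p = 8.5e-04, peak at 6.9 h, SE 0.6 h).

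In alpha cells Slc30a8 had 445 and 454 RPKM at ZT0, 477 and 470 RPKM at ZT4, and 468 and 524 RPKM at ZT8. It had 411 and 447 RPKM at ZT12, 420 and 434 RPKM at ZT16, and 474 and 453 RPKM at ZT20. Early and late libraries were mixed. The fitted range was 0.16 (SE 0.102, limma adjusted p = 0.51). The ratio of the mean beta to the mean alpha RPKM of Slc30a8 went from 1.22 at ZT20 and 1.23 at ZT16 to 1.7 at ZT8.

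Whether a rhythm differed between the cell types was tested directly, as the difference of both cosines in the same model. None of the 10 members was called, against 0.0713% of all genes (10 genes). At an unadjusted p under 0.05 there were 3 members, against 7.66% of all genes. The difference had a range of 0.55 for Slc30a8 (limma adjusted p = 0.29), 1.48 for Mt2 (adjusted p = 0.36) and 1.15 for Mt1 (adjusted p = 0.65). In this fit, which has no replicate block, the difference thus passed for no member, Slc30a8 included. For Slc30a1 the difference was 0.17 (limma adjusted p = 1). With a block for each time and replicate number, Mt2 (limma adjusted p = 0.0157) and Slc30a8 (0.0439) passed. The labels do not tie these numbers to animals.

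**Figure D3:**
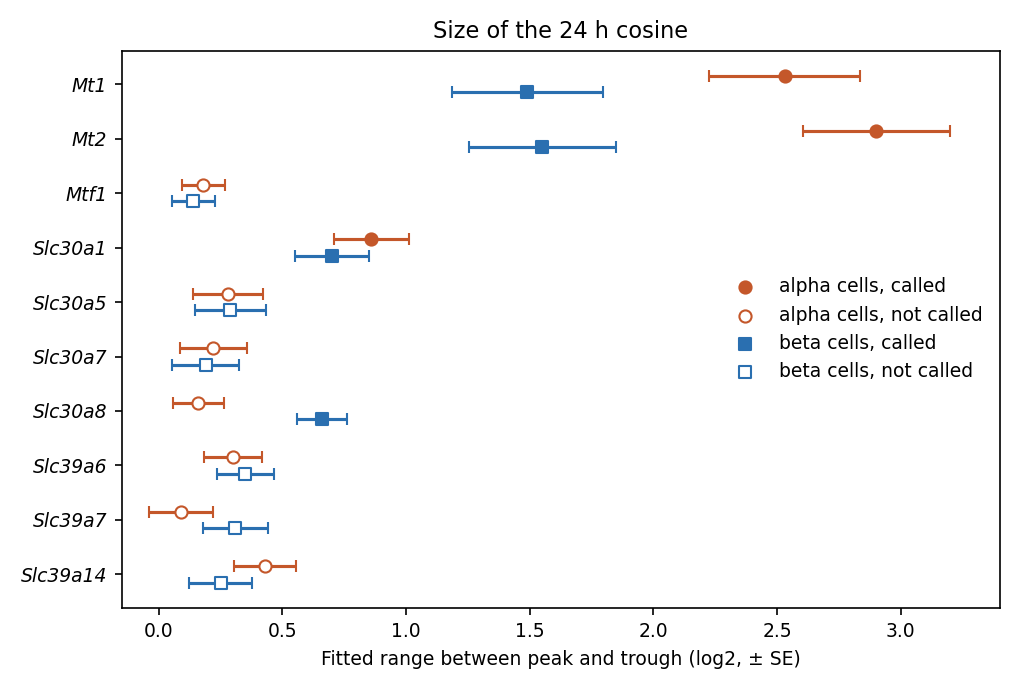
Fitted range between peak and trough of a 24 h cosine for the 10 members, on the log2 scale with its standard error, in alpha cells (circles) and beta cells (squares). Filled symbols were called rhythmic: Mt1 (2.53 and 1.49) and Mt2 (2.90 and 1.55) have the largest ranges, and Slc30a8 is filled in beta cells only, though the difference of its rhythms was not called in the fit without a replicate block.

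The other 6 members were not called in either cell type. Slc39a14 lies on chromosome 14 from 70303469 to 70351425 and Slc39a7 on chromosome 17 from 34028269 to 34031682. Slc30a5 lies on chromosome 13 from 100802648 to 100833427, Slc30a7 on chromosome 3 from 115938973 to 116007406 and Mtf1 on chromosome 4 from 124802104 to 124849800. Slc39a14 in alpha cells came nearest, with a range of 0.43 (SE 0.126, limma adjusted p = 0.068) and a fitted peak at 17.1 h (SE 1.1 h). Its alpha libraries had 4.24 and 5.78 RPKM at ZT0, 4.85 and 3.72 RPKM at ZT4, 4.17 and 4.23 RPKM at ZT8, 5.17 and 5.59 RPKM at ZT12, 5.7 and 5.53 RPKM at ZT16, and 5.68 and 4.92 RPKM at ZT20. The lowest values lay at ZT4 and ZT8, where Mt1, Mt2 and Slc30a1 were high, but replicate 1 of ZT0 was as low. Slc39a14 passed in 3 of 34 alternative fits, among them limma voom on the recovered reads (adjusted p = 0.0449).

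Slc39a6 in beta cells had a range of 0.35 (SE 0.116, limma adjusted p = 0.089), and its libraries lay between 11.8 and 17.8 RPKM with the highest in replicate 2 of ZT4. Slc39a7 in beta cells had 153 and 152 RPKM at ZT0, 110 and 95.1 RPKM at ZT4, 134 and 129 RPKM at ZT8, 111 and 122 RPKM at ZT12, 133 and 143 RPKM at ZT16, and 138 and 135 RPKM at ZT20. Low values at ZT4 and ZT12 stood on either side of a higher ZT8, a course that a 24 h cosine describes poorly (range 0.31, SE 0.131, limma adjusted p = 0.2). With the time point as a factor Slc39a7 passed in beta cells (limma adjusted p = 0.019), and in alpha cells its range was 0.09 (adjusted p = 0.85).

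Slc30a5 had ranges of 0.28 and 0.29 in alpha and beta cells (limma adjusted p = 0.33 and 0.28), and Slc30a7 of 0.22 and 0.19 (adjusted p = 0.48 and 0.54). Mtf1, the metal sensor, had ranges of 0.18 and 0.14 (limma adjusted p = 0.31 and 0.47). Its libraries lay between 5.02 and 6.16 RPKM in alpha and between 6.12 and 7.56 RPKM in beta cells. The median range over the members was 0.29 in alpha and 0.33 in beta cells, against 0.35 and 0.38 over all genes.

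**Figure D4:**
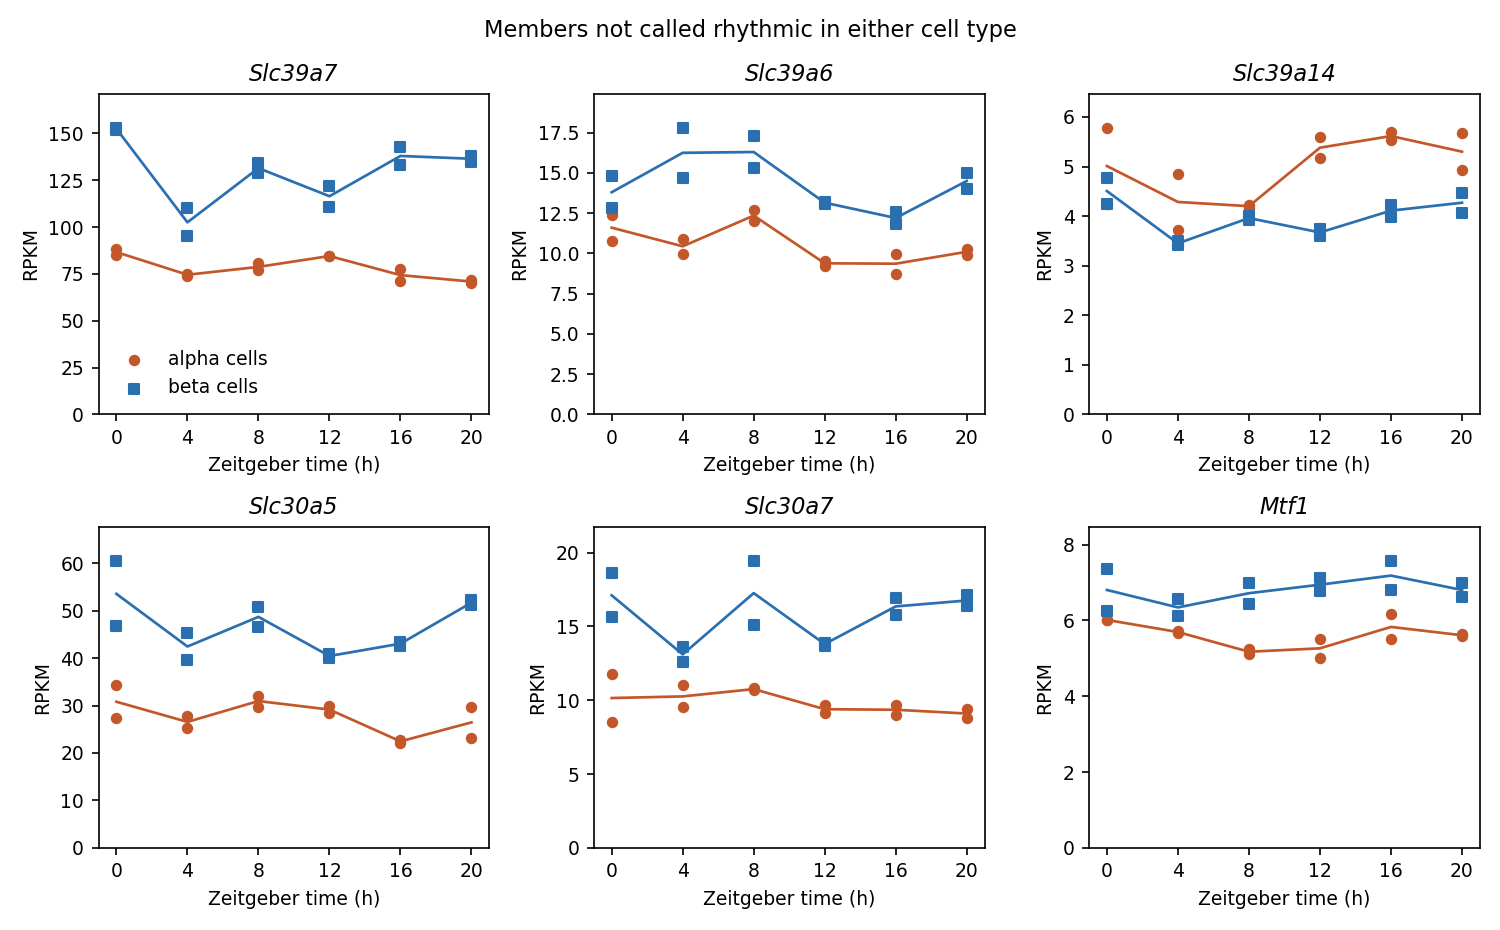
Level of the 6 members not called rhythmic in either cell type, in RPKM, against zeitgeber time in hours. Each point is a library and lines join the means of 2 libraries: at each time beta cells (squares) lie above alpha cells (circles) in all panels except that of Slc39a14, and Slc39a7 in beta cells is lowest at ZT4 (110 and 95.1 RPKM).

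To describe which genes shared these courses, Pearson correlations were taken over the 24 libraries after subtracting the mean of each cell type from the log2 values, among 11980 genes. The points share library, depth and time of day, and no test was made. Mt2 was the gene most like Mt1 (r = 0.98), followed by Slc25a20, the mitochondrial carnitine carrier (0.93), Tmem86a (0.92), Mkrn1 (0.91) and Rragd, a GTPase of the nutrient-sensing pathway (0.90). Slc30a1 ranked 7 in that order (0.90). The genes most like Slc30a1 were Mt2 (0.92), Rasip1 (0.91), Mt1 (0.90), Slc25a20 (0.90) and Avl9 (0.88).

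Slc30a8 had other close genes: Vat1l (0.90), Msi2 (0.88), Sfrp5 (0.88), Tbl1x (0.87) and Reep3 (0.87). Its correlation with Mt1 was 0.58, made of 0.52 over the 12 alpha and 0.83 over the 12 beta libraries. Of the 11980 genes 15.3% were at least as close to Mt1. With Mt1, Mtf1 had a correlation of -0.61 and Slc39a14 of -0.66, and 86.8% and 90.5% of genes lay at or above these values. Slc39a7 went with Mt1 at 0.28 over the alpha and at -0.82 over the beta libraries. Slc30a1 and Slc39a14 were at -0.78 over all 24 libraries, where 98.8% of genes lay at or above this value with Slc30a1.

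Of 19 other metallothionein and zinc transporter genes 11 were in the table, and the rest were not analysed here. Between cell types 2 of the 11 were called, against 20.7% of all genes. Mt3, the metallothionein best known from neurons, had 0 to 2 reads in the alpha libraries and 5 to 20 in the beta libraries, or 0.11 ± 0.108 against 2.09 ± 0.756 RPKM (limma adjusted p = 1.2e-11). Slc39a11 was 3.14-fold higher in alpha cells, at 5.78 ± 0.39 against 1.87 ± 0.435 RPKM (limma adjusted p = 2.3e-13). Without the fold threshold 9 of 11 passed, against 74.9% of all genes, and 7 of them were lower in alpha cells, against 37.2%. The median log2 difference was -0.30, against 0.01 over all genes.

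None of these 11 genes was called rhythmic in alpha cells, against 9.66% of all genes. At an unadjusted p under 0.05 (limma) there were 2, against 4173 of all 14027 genes. In beta cells 2 were called rhythmic, against 16% of all genes. Slc39a11 had a 1.79-fold range with a peak at 22.0 h (SE 0.7 h, limma adjusted p = 0.0021), outside the ZT4 to ZT12 part of the day in which Mt1, Mt2, Slc30a1 and Slc30a8 peaked. Slc39a8 was called as well (adjusted p = 0.0073, peak at 23.8 h), but it rests on 2 to 31 reads a library.

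Metallothioneins also respond to glucocorticoids and to oxidative and other stress, and lists of genes for these were set beside them. Of 9 glucocorticoid-induced genes, 3 were called rhythmic in alpha cells (Fkbp5, Klf9 and Per1), where 9.66% of all genes were, and 4 in beta cells (these and Tsc22d3), where 16% of all genes were. Their peaks lay between 11.8 h (Klf9) and 17.0 h (Per1), both in alpha cells, against 5.9 to 7.4 h for Mt1 and Mt2, a difference that was not tested. Of 9 genes of the oxidative and electrophile response, 1 was called rhythmic in each cell type, against 9.66% and 16% of all genes. Hmox1, a heme oxygenase, was called in alpha cells (2.55-fold, limma adjusted p = 0.027, peak at 6.9 h, 5 to 27 reads a library). In beta cells Hmox1 was not called (adjusted p = 0.21, fitted peak at 23.8 h). Nqo1, a quinone reductase, was called in beta cells (2.73-fold, limma adjusted p = 0.0044, peak at 4.1 h) but not in alpha cells (adjusted p = 0.39). Between cell types 3 of these 9 genes were called, Hmox1, Nqo1 and Slc7a11, each higher in beta cells, against 20.7% of all genes called and 9.54% called higher in beta cells. Slc7a11 lies near the floor of the table, with a mean log2 value of -3.91. Nqo1 was at 0.798 ± 0.258 RPKM in alpha and 6.74 ± 2.66 RPKM in beta libraries (7.17-fold, limma adjusted p = 2.5e-13). Of the 9 glucocorticoid-induced genes 3 were called between cell types, Zbtb16 and Pdk4 higher in alpha and Sgk1 higher in beta cells.

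Immediate early genes, which respond to cell handling among other stimuli, were set beside the metallothioneins too. None of the 12 was called rhythmic in either cell type, against 9.66% (alpha cells) and 16% (beta cells) of all genes. At an unadjusted p under 0.05 (limma) there were 0 in each, against 4173 (alpha cells) and 4812 (beta cells) of all 14027 genes. Between cell types 10 of the 12 were called higher in alpha cells. Of all 14027 genes 1565 were called higher in alpha cells, and 20.7% in either direction. The summed level of the 12 genes was highest in replicate 2 of ZT8 in alpha cells (2880 RPKM), the alpha library with the most Mt1 (232 RPKM). It was lowest in replicate 1 of ZT8 (406 RPKM), where Mt1 had 122 RPKM. In beta cells the library with the most Mt1 (665 RPKM), replicate 2 of ZT4, had a sum of 365 RPKM, and the 12 beta sums ran from 246 to 1110 RPKM. The part of cell handling in the levels of Mt1 and Mt2 was not tested. With 4 libraries left out together (replicate 1 of alpha ZT4, alpha ZT16 and beta ZT4, which had the most RNA of the other cell type's hormone, and replicate 2 of alpha ZT8), a choice made after seeing the data, 3 members were again called rhythmic in alpha and 4 in beta cells. In that fit 699 of all 14027 genes were called rhythmic in alpha cells. The ranges of Mt1 were then 2.25 (limma adjusted p = 0.0058) and 1.51 (adjusted p = 0.017).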

How the data were processed

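RNA was extracted with a column kit, and stranded libraries were made after removal of ribosomal RNA, per the labels' protocols. STAR, edgeR and the build mm10 are named, without versions, per the submitters' processing notes. The annotation, strand setting and gene filter are not stated there. Per gene, log2 values were deposited by the authors (14027 genes), and the values show them to be log2 RPKM with a prior count of 2.0. Whole reads were recovered for all 14027 genes (tolerance 0.01, largest deviation 8.0e-08), and RPKM were computed from them without a prior count. The prior count makes log2 differences understate changes of genes with few reads. The 2 libraries of each group differed beyond sampling noise, with a chi-square of 2.57 to 48.6 per gene.

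The deposited log2 values were tested with limma 3.58.1 (R 4.3.3), with a variance trend and robust variances. Benjamini-Hochberg adjustment covered all 14027 genes. One fit over 24 libraries gave the cell type difference, with a term for each time. Another gave each cell type its own mean and 24 h cosine, with F-tests of the 2 cosine terms and of their differences. The scripts were tested on simulated data. Alternatives were other scales and filters, voom on the recovered reads, time as a factor, a replicate block, single cell types and each library left out.

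Of the identifiers 13802 matched GENCODE M21 (GRCm38, the assembly of mm10), and promoters are those of RefSeq. All 10 members were named, with the called genes of each list, at most 4 per list and comparison, and the 5 genes most like Mt1, Slc30a1 and Slc30a8. The genes that overlap members were chosen later, with their values in view. The members and lists were chosen with earlier results of these data known.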

Additional observations from a re-analysis of the deposited data

How the results depend on the processing

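Under 34 alternative settings no direction of a cell type difference of the 10 members reversed, and Mt1, Mt2 and Slc30a1 kept their rhythm calls in both cell types, as did Slc30a8 in beta cells. Their highest limma adjusted p was 0.044, for Slc30a1 in beta cells. Slc39a6 in beta cells passed without replicate 2 of ZT0 (adjusted p = 0.0385) or replicate 1 of ZT20 (0.0447), and Slc39a14 in alpha cells without replicate 2 of ZT0 (0.0357) or replicate 1 of ZT4 (0.0348). The counts over all genes moved more. Called cell type differences went from 2903 to 10508 with no fold threshold (10 of the 10 members), 1602 on log2(RPKM + 1) and 1755 among genes with a mean log2 value above 0. Rhythms in alpha cells went from 1355 to 531 with time as a factor and 699 without the 4 libraries, and in beta cells from 2241 to 1212 with time as a factor and 894 from beta libraries alone. Differences of rhythm went from 10 to 44 on log2(RPKM + 1) and 2 with time as a factor.

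Leaving out each library in turn gave 2872 to 2939 cell type differences (members 2 in each), 348 (without replicate 1 of alpha ZT8) to 2252 (without replicate 1 of alpha ZT4) rhythms in alpha cells (members 3 to 4), 1077 (without replicate 2 of beta ZT16) to 3100 (without replicate 2 of beta ZT0) rhythms in beta cells (members 4 to 5), and 4 to 14 differences of rhythm (members 0 in each). Other single libraries also moved the rhythm counts by over 1.5 times, in alpha cells to 757 (replicate 2 of ZT8), 879 and 822 (replicates 1 and 2 of ZT12), 676 and 619 (ZT16) and 726 (replicate 1 of ZT20), and in beta cells to 1269 (replicate 2 of ZT4), 1330 (replicate 1 of ZT8) and 1120 (replicate 1 of ZT16). The cause was not tested, beyond the smaller number of libraries.

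Alpha and beta libraries with the same replicate number had deviations from their group means that correlated at 0.70, 0.52, 0.45, 0.15, 0.15 and 0.02 for ZT0 to ZT20 over 11831 genes, so the numbers were not taken to pair the libraries at every time. With the replicate number alone as a block, shared by all times, 1235 rhythms in alpha cells and 2046 in beta cells were called. With a block for each time and replicate number, 2903 cell type differences and 174 differences of rhythm were called. In that fit 2 members passed the test of the difference of rhythm, Mt2 (limma adjusted p = 0.0157) and Slc30a8 (0.0439). Over all settings the adjusted p of that test ran from 0.016 to 0.64 for Mt2 and from 0.044 to 0.9 for Slc30a8.

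Depth limits Mt3 and Slc39a8, with few reads a library, more than any member.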

Other observations

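The ratio of Mt1 to Mt2 per length was lower in replicate 1 than in replicate 2 at 6 of 6 times in alpha cells and at 4 of 6 times in beta cells. Over the libraries it ran from 2.52 to 4.46 in alpha and from 4.25 to 5.85 in beta cells.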
